A study of Homo sapiens with 2 samples.

Results

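The regions described here are the HNRNPK ChIP-seq peaks on human chromosome 7, which numbered 1597 of the 22351 peaks of the list. All peaks placed on chromosome 7 were taken, and the chromosome itself was selected on measured values, namely more peaks per Mb than its density of protein-coding genes gives on the line of the other chromosomes. The list was called on 1 IP library, made with an antibody to HNRNPK, against 1 input library made with no antibody, both from untreated cells of the line H1299, which derives from non-small cell lung cancer and is labelled as lung adenocarcinoma. There were no replicates, so no value carries a replicate error, and the intervals given cover counting error only. Names of single peaks begin the cell line with a different letter, and the values rest on reading the list as the one from this IP.

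HNRNPK is a nuclear and cytoplasmic protein with KH domains, which bind single-stranded RNA and DNA and prefer stretches rich in C. It takes part in transcription, splicing, RNA stability and translation, and it is abundant in many tumours. In ChIP-seq a peak is a stretch of DNA at which fragments pulled down with the antibody pile up above a local background, and it does not show whether the protein touches DNA itself or is held there through RNA or other proteins.

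The promoter windows under peaks are shown first, because they are the places on chromosome 7 where the sequence under a peak could be read. A window runs from 250 bases before to 50 bases after a start site in RefSeq (GRCh38.p14). On chromosome 7, 799 protein-coding genes had such a window. In 21 of them (2.63%, Wilson 95% interval 1.73% to 3.98%) it overlapped a peak by at least 1 base. Of the 20037 protein-coding genes of the genome only 15843 had a window, and in 2.34% of these it overlapped a peak. With the windows of other gene types, 32 windows of chromosome 7 were overlapped. The sequences below are 7 of these, written 5′ to 3′ on the strand of the gene, with the bases under the peak in capitals. LOC124901654, a long noncoding RNA gene, had the highest fold enrichment of all, and ATP6V0A4, SMARCD3, TMEM225B and ACHE had the highest values among protein-coding genes outside families of near-identical copies. LOC124901654, HIP1 and IGF2BP3 were chosen after their values were seen, HIP1 as a gene with many peaks and IGF2BP3 for its C-rich letters.
LOC124901654: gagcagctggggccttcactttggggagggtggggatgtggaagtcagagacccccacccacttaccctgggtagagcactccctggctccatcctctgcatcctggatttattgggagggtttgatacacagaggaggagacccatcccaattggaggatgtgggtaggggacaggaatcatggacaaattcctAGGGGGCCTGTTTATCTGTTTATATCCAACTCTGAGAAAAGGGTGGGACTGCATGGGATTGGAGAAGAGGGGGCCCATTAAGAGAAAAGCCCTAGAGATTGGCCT
ATP6V0A4: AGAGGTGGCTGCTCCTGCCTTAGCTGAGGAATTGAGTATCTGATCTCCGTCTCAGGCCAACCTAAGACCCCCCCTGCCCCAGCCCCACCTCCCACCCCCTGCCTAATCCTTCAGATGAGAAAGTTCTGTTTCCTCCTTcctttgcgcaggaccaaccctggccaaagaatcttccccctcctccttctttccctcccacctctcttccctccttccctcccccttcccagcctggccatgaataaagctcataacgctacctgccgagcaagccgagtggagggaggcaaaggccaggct
SMARCD3: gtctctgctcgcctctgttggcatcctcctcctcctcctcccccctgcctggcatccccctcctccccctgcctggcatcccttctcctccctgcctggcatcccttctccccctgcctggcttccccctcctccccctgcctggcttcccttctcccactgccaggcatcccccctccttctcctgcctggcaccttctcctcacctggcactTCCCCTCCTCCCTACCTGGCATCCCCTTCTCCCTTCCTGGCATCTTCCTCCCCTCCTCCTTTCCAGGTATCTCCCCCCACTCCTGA
TMEM225B: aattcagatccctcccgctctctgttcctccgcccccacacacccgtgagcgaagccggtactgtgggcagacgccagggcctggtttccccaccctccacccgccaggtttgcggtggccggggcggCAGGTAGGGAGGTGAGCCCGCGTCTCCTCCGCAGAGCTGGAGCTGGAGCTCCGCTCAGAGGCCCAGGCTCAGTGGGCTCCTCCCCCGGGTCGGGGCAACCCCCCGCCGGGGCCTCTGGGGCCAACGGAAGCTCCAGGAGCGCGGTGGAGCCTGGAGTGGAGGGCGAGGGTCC
ACHE: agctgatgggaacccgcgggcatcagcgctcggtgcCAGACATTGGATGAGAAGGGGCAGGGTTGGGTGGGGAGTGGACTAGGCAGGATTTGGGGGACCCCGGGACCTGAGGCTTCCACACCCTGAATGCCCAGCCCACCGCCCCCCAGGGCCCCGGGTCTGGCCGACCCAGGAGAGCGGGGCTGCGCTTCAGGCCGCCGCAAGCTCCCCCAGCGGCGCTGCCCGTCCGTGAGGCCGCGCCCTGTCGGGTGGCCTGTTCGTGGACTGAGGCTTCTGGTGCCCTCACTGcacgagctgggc
HIP1: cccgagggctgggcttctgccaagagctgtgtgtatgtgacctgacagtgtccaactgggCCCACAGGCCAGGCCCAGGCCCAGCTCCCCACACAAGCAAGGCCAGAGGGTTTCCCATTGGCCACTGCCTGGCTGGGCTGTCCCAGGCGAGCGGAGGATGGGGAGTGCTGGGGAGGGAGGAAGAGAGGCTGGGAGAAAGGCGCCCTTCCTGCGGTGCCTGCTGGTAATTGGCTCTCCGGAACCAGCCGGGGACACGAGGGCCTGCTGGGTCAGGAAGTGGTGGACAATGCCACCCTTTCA
IGF2BP3: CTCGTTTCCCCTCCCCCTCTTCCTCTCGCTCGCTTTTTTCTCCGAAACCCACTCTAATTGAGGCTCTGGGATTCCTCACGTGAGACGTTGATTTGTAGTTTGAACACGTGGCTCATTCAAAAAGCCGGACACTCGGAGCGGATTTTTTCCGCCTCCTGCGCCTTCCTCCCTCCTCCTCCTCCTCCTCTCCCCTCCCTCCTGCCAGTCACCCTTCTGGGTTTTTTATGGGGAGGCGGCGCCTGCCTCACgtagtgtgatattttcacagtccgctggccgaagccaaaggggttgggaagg

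The window of LOC124901654 lies at chr7:63891301-63891600 on the minus strand, and its peak reached 6.10 in fold enrichment at an FDR of 2.39e-05, with a pileup of 13.63. Fold enrichment sets the IP coverage over a background estimated around the peak, and the pileup is that coverage as scaled fragments, so that this pileup stands for 14 fragments. The window of ATP6V0A4, which encodes a subunit of the vacuolar proton pump, lies at chr7:138798147-138798446 on the minus strand. Its peak covered 138 of the bases, with a fold enrichment of 4.77 and an FDR of 0.0243, the highest fold enrichment among the protein-coding genes. The midpoint of this peak lies outside the span of ATP6V0A4 and inside TMEM213, a gene on the plus strand whose span overlaps the window. SMARCD3, a subunit of the BAF chromatin remodelling complex, has its window at chr7:151276685-151276984 on the minus strand, with a fold enrichment of 4.06 and an FDR of 0.134. The SMARCD3 window held TCCC or its reverse complement 18 times, the most of the 32 windows, and 6 of these lay under the peak.

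TMEM225B has its window at chr7:99598017-99598316 on the plus strand, with a fold enrichment of 3.90 and an FDR of 0.0705. It held GCGAGG, the letters that the study names, 1 time, under the peak. ACHE, which encodes acetylcholinesterase, has its window at chr7:100894557-100894856 on the minus strand, and the peak covered 252 of its bases with a fold enrichment of 3.87 and an FDR of 0.101. HIP1, a clathrin adaptor, has its window at chr7:75611767-75612066 on the minus strand, at a start inside the gene, with a fold enrichment of 2.73 and an FDR of 1. IGF2BP3, which encodes an mRNA-binding protein with KH domains of its own, has its window at chr7:23470442-23470741 on the minus strand, with a fold enrichment of 3.16 and an FDR of 0.640. Under its peak lay 7 matches to TCCC and 4 to CCCTCC. Of the 21 protein-coding genes 4 kept an overlap when an FDR under 0.05 was asked for, and over the whole list 15.5% of peaks had such an FDR.

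The 32 windows were searched on both strands for 4 sets of letters. GCGAGG is named by the study, as is the set CTAATG. The C-rich sets were TCCC, short and common, and the longer CCCTCC, and a match to the shorter can overlap a match to the longer. GCGAGG was in 5 windows (15.6%, 6.86% to 31.8%), beside 22.04% of all 35116 promoter windows. CTAATG was in 4 (12.5%, 4.97% to 28.1%), beside 6.49%, but 3 of these are overlapping SNX10 windows that share 1 match outside the peak, and the other is that of VSTM2A. TCCC was in 31 (96.9%, 84.3% to 99.4%), beside 96.0%, and CCCTCC in 18 (56.25%, 39.3% to 71.8%), beside 45.7%. Each interval held the share over all windows, and a match describes letters only. The median GC content was 61.8% in the 32 windows and 58.7% over all windows. The 32 windows are not separate places throughout, since SNX10 gave 3 overlapping windows under 1 peak and LINC03014 and LINC03015 share 1 peak.

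The other promoter windows of the 10 highest protein-coding genes belonged to SPDYE3, TRIM74, SNX10, SLC12A9, VSTM2A and ZNF786. SPDYE3, of the Speedy family of cell cycle regulators, had a fold enrichment of 4.55 and an FDR of 0.00506. TRIM74, a gene of the tripartite motif family, had 4.19 and 0.00503. SNX10, a sorting nexin of endosomes, had 3.82 and 0.290 for its peak at chr7:26291870-26292134, SLC12A9 of the cation-chloride cotransporter family had 3.71 and 0.180, VSTM2A had 3.66 and 0.290, and the zinc finger gene ZNF786 had 3.57 and 0.339. SPDYE3 and TRIM74 were under the FDR of 0.05 and the other 4 were not. TRIM74 has a near-identical copy on chromosome 7, so the gene that its reads came from is uncertain. Of the 20-base words of the TRIM74 window, 92.9% were also in the window of TRIM73, and 96.4% of those of UPK3BL2 were in that of UPK3BL1, while SPDYE3, although of a family with many copies, shared 8.54% with SPDYE18. Such a window, with at least 50% of its words in the window of another gene, made up 4 of the 32 (12.5%, 4.97% to 28.1%) and 69 of the 1779 windows of chromosome 7 (3.88%, 3.08% to 4.88%). No peak overlapped any of the 68 miRNA hairpins of the chromosome.

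Over all 1597 peaks, the median length was 278 bp, between extremes of 233 and 1177 bp, beside a median of 271 bp over the 20502 peaks of the other chromosomes. The median pileup was 8.76, which is 9 fragments, beside 7.79 or 8 fragments elsewhere, and single peaks lay between 4.87 and 142.13. For fold enrichment the median was 3.53, beside 3.58, and the extremes were 2.06 and 11.04. An FDR under 0.05 was given to 269 peaks (16.8%, 15.1% to 18.8%), beside 15.5% of the whole list, and an FDR of 1 to 91 peaks (5.70%). The peaks were thus slightly longer and rested on slightly more fragments than those elsewhere, at much the same fold enrichment. Peaks of 500 bp or more numbered 118 (7.39%, 6.21% to 8.78%), beside 6.01% elsewhere. The longest, of 1177 bp, lay over the pseudogene DTX2P1 with a fold enrichment of 3.90. Another long peak, of 1059 bp at chr7:155791834-155792892, lay 7.62 kb from SHH, the sonic hedgehog ligand, with a fold enrichment of 5.72 and an FDR of 0.000671, while SHH itself held none. Both long peaks were singled out after their values were seen.

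Where the fold enrichment and pileup of a peak are known, the local background it was called against can be recovered. On chromosome 7 its median was 1.68 scaled fragments (1.63 to 1.72), beside 1.26 on the other chromosomes, and the chromosome ranked 3 of 24 in it. Chromosome 14, near in gene density, came next with 1.596, and chromosome 6 had 1.35. A background of 1.5 to 2.5 was found for 778 peaks (48.7%), beside 26.1% elsewhere. The lowest level of the list was found for 226 peaks (14.2%, 12.5% to 15.9%), beside 24.1%, with 13.96% on chromosome 6 and 8.77% on chromosome 14. The list used the input as control, and coverage at the peak and around it was not separated in the background. The copy number of chromosome 7 in these cells was not analysed here.

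Chromosome 7 carried 10.03 peaks per Mb (Poisson 95% interval 9.54 to 10.5) over 159.2 Mb, with 5.89 protein-coding genes per Mb. This number of peaks is the value it was selected on and is given as a description with no test. The line of the other 23 chromosomes read 6.31 peaks per Mb at this gene density, so the ratio was 1.59. In peaks per Mb the chromosome ranked 5 of 24, and in gene density 11 of 24. The next longer chromosome, 6, had 7.51 peaks per Mb, and the next shorter, X, had 1.43. Chromosomes 15 and 14, nearest in gene density, had 6.63 and 7.47. The excess over the line was 3.72 peaks per Mb on chromosome 7, and chromosome 20 had a larger one of 4.53, so the excess was not the largest of the set. Peaks per protein-coding gene gave the same order, with 1.70 on chromosome 7 and 1.74 on chromosome 20. The ratio to the line gave another order, and among chromosomes with a value chromosome 7 had the highest. Chromosome 18 had a ratio of 1.56 and chromosome 20 one of 1.45. Both entered the line and chromosome 7 did not, so the ratios are not on like terms.

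**Figure D1:**
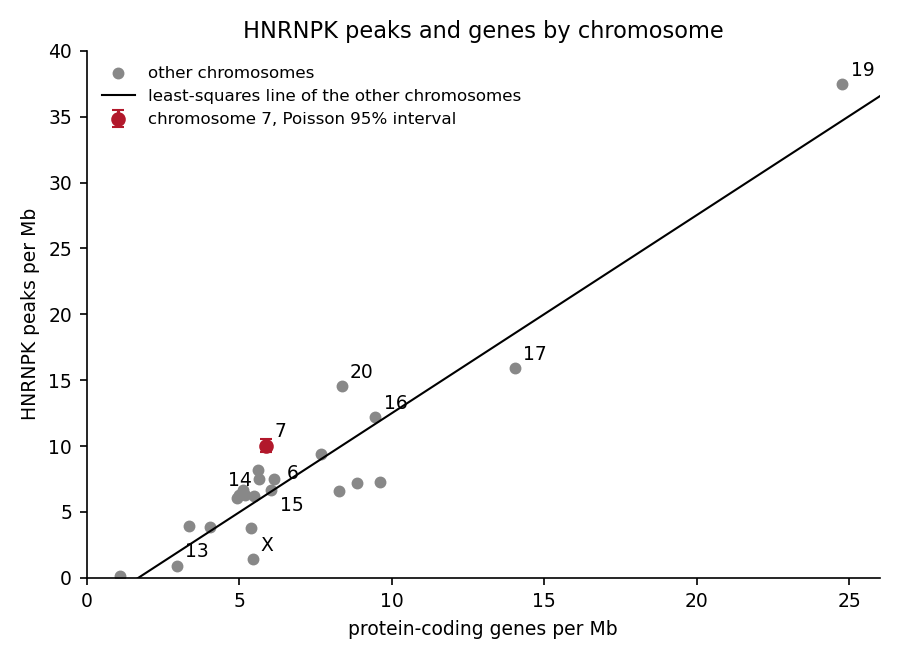
HNRNPK peaks per Mb (vertical) against protein-coding genes per Mb (horizontal) for 24 chromosomes, with the least-squares line of the 23 others. Chromosome 7, in red with its Poisson interval, sits at 10.03 peaks per Mb, above the 6.31 of the line.

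The ratio to the line changed when peaks were limited by their background. When only peaks with a background under 1.5 were counted, on all chromosomes alike, chromosome 7 kept 635 peaks (39.8%), the others kept 12949 (63.2%), and the ratio was 0.966 (0.892 to 1.04). This threshold was chosen after the values were seen and lies just under the median of chromosome 7. It took away 60.2% of the chromosome 7 peaks and 36.8% of the others. With a background under 3, which was among the planned settings, the ratio was 1.54. The part of the background in the number of peaks was not tested.

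By arm, divided at 60 Mb, the short arm held 550 peaks (9.17 per Mb, 8.42 to 9.97) and the long arm 1047 (10.6 per Mb, 9.92 to 11.2). The ratio of long to short arm was 1.15 (1.04 to 1.28). The long arm also had more protein-coding genes, 6.41 per Mb beside 5.03, and per gene the short arm had more peaks, 1.82 beside 1.65. The order of the arms did not hold among stronger peaks. An FDR under 0.05 was given to 106 peaks of the short arm (19.3%) and 163 of the long arm (15.6%), beside 15.5% of the whole list, and for these the ratio of long to short arm turned to 0.930 (0.723 to 1.20).

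Peaks were gathered in a few stretches. Of 160 bins of 1 Mb, 15 held no peak and the median bin held 5. The 10 fullest bins held 523 peaks, or 32.7% (30.5% to 35.1%), with 19.1% of the protein-coding genes. These bins lay in 4 stretches, at 0 to 3 Mb, 63 to 64 Mb, 73 to 76 Mb and 100 to 103 Mb. Neighbouring peaks lay a median of 28.7 kb apart, beside 37.3 kb on the other chromosomes, and the longest distance without a peak, 4249 kb, lay between 16.5 and 20.8 Mb. The longest run of bins with at most 5 peaks each went from 103 to 128 Mb, with 55 peaks over 98 protein-coding genes. Dense and bare stretches therefore stood side by side, with the edge at 103 Mb between a bin of 53 peaks and this run of 25 bins.

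Compared with 1 Mb bins of the other chromosomes that hold a like number of protein-coding genes, the peaks of chromosome 7 were 1.52 times as many (1597 beside 1054). There were 74 bins above the mean of like bins and 86 below it. Of a surplus of 543 peaks the 10 fullest bins made up 371, which is a description only, since they were taken for their peaks. Bins with 11 to 20 genes held 25.9 peaks on average, beside 13.1 elsewhere, and those with 6 to 10 genes 9.34 beside 8.31. Over the 160 bins the rank correlation between peaks and genes was 0.544, and over 2941 bins of the other chromosomes 0.596, as a description of bins that share 1 library.

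**Figure D2:**
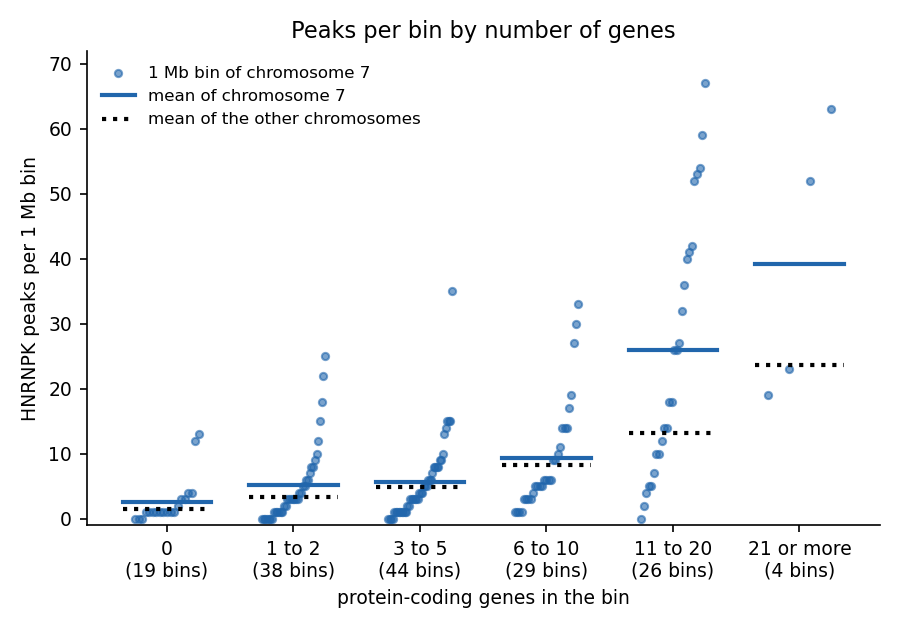
Peaks in each 1 Mb bin of chromosome 7 (points), grouped by the number of protein-coding genes in the bin, with the mean of chromosome 7 (solid) and of the other chromosomes (dotted). The bins with 11 to 20 genes average 25.9 peaks beside 13.1 elsewhere and range up to 67.

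The fullest bin, at 1 to 2 Mb, held 67 peaks (51.9 to 85.1) where like bins averaged 13.1, and 19 of them had an FDR under 0.05, beside 15.5% of the whole list. Of its peaks 32 lay inside protein-coding genes, 14 of them in MAD1L1, which runs on into the next bin. Of the 12 genes centred in the bin 6 held a peak. CHLSN held 9, MICALL2, an adaptor of membrane traffic, held 4 and ELFN1, a synaptic adhesion protein, held 2. The Integrator subunit INTS1, the small MAF transcription factor MAFK and TMEM184A held 1 each. The estrogen receptor gene GPER1, GPR146, ZFAND2A, the homeobox gene UNCX and PSMG3 held none. The highest peak of the bin, at chr7:1593662-1594495 with a fold enrichment of 7.99 and an FDR of 1.59e-10, lay in the long noncoding RNA gene LOC105375123, 24.05 kb from PSMG3.

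The next bin in order, at 100 to 101 Mb, held 63 peaks (48.4 to 80.6) over 46 protein-coding genes, of which 22 held a peak. The sperm zona-binding protein gene ZAN held 6, and GIGYF1 and MUC3A 4 each. AGFG2, LRCH4 and SLC12A9 held 3 each, and so did the part of MUC12 in this bin, which continues into the next with the rest of its 8 peaks. MCM7, a subunit of the replicative helicase, the receptor kinase gene EPHB4 and the meiotic cohesin gene STAG3 held none. The red-cell hormone gene EPO held none in its span, but the peak at chr7:100720136-100720384 overlapped its promoter window with a fold enrichment of 3.25 and an FDR of 0.339. An FDR under 0.05 was given to 8 of the 63 peaks, beside 15.5% of the whole list.

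The bin at 0 to 1 Mb, the third in order, held 59 peaks (44.9 to 76.1), 15 of them with an FDR under 0.05, beside 15.5% of the whole list, and 36 inside protein-coding genes. PRKAR1B, a regulatory subunit of protein kinase A, held 11, ADAP1 held 9 and FAM20C, a kinase of secreted proteins, held 5. FAM20C had the highest fold enrichment of the bin, 6.17 at chr7:215657-216057. SUN1 of the nuclear envelope held 3, and the growth factor gene PDGFA, GET4 and DNAAF5 held 1 each. COX19, CYP2W1 and FOXL3 held none. The first peak of the chromosome, at chr7:10016-10248 next to its end, had a pileup of 29.2 but a fold enrichment of only 2.16, against a background of 12.998. The bin at 63 to 64 Mb differed from these, since 1 of its 40 peaks lay inside a protein-coding gene.

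In blocks of 10 Mb, the number of peaks relative to like bins elsewhere ran from 0.133 to 3.23. The blocks at 0 to 10 Mb and at 70 to 80 Mb held 284 peaks each, 3.20 and 3.23 times the number from like bins. The block at 60 to 70 Mb followed with 149 peaks and 2.94 times. At the low end, 10 to 20 Mb held 6 peaks over 29 protein-coding genes (0.133) and 20 to 30 Mb held 14 over 57 (0.229). The median background was 1.71, 2.0 and 1.75 in the first 3 of these blocks and 1.16 and 1.046 in the last 2. The 7 blocks with a median background of 1.5 or more held 1129 peaks (70.7%) and 51.3% of the protein-coding genes, at a ratio of 2.20, and the 9 other blocks held 468 peaks at a ratio of 0.864. Over the 16 blocks the rank correlation between background and ratio was 0.635, a description of blocks that share 1 library. The division at 1.5 was made after the values were seen, and the part of the background in the number of peaks was not tested. The relation had exceptions on both sides. The blocks at 80 to 90 and 90 to 100 Mb had median backgrounds of 1.75 and 1.98 at ratios of 1.07 and 1.04. Those at 30 to 40, 50 to 60 and 150 to 160 Mb had 1.19, 1.08 and 1.047 at ratios of 1.61, 1.46 and 1.5.

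**Figure D3:**
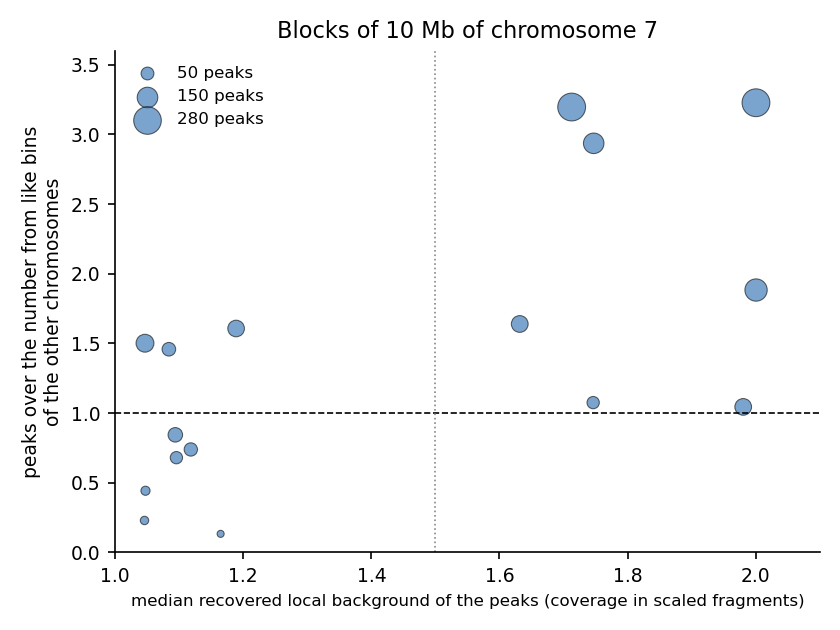
Each point is a 10 Mb block of chromosome 7, with the median recovered background of its peaks (horizontal) and its peaks over the number from like bins of the other chromosomes (vertical), sized by its peaks. The 3 blocks with the highest ratios, 2.94, 3.20 and 3.23, all have a median background over 1.5, and each block with a ratio under 1 has one of at most 1.16.

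Of the 1597 peaks, 831 (52.0%, 49.6% to 54.5%) lay with their midpoint inside a protein-coding gene, beside 51.0% on the other chromosomes and 42.4% on chromosome 6. Within 1000 bp of either end of a protein-coding gene lay 96 (6.01%, 4.95% to 7.29%), beside 7.88% (7.52% to 8.26%) elsewhere. Around start sites, 34 peaks (2.13%, 1.53% to 2.96%) lay within 500 bp of the nearest start of a protein-coding gene, beside 2.74% of the 19623 peaks on other chromosomes with start sites in the table. The 500 bp just after the start held 21 peaks, more than any other step within 5 kb, and the step before it 13. Inside genes whose strand was known, divided into 4 parts of equal length, the part at the start held 22.03% (19.1% to 25.3%) of the 690 placements and the part at the far end 27.5% (24.3% to 31.0%), beside 25.5% and 29.2% elsewhere. Most of the peaks therefore lay in gene bodies or between genes rather than at starts.

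Protein-coding genes with a peak inside numbered 343 of 938 (36.6%, 33.5% to 39.7%), beside 29.3% over the genome, where the same peaks that chose the chromosome are counted. Of these genes 178 held 1 peak, 126 held 2 to 4, 26 held 5 to 9 and 13 held 10 or more. Genes with a peak were longer, with a median of 50.2 kb beside 19.2 kb for those without. Among genes under 20 kb, 22.3% held a peak (16.3% elsewhere), and among genes of 500 kb or more 22 of 26 did (84.6%, 66.5% to 93.9%, and 66.4% elsewhere). A long gene gives more room for a peak, so peaks per Mb of gene are given beside the counts, and over all protein-coding genes of the chromosome they came to 11.3.

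The 10 genes with the most peaks held 152 peaks, 9.52% of the chromosome. SDK1, a cell adhesion protein of synapses, held 21 over 967.7 kb, with fold enrichments from 2.605 to 4.61. MAD1L1, of the spindle assembly checkpoint, held 20 over 417.2 kb, from 2.44 to 7.04. PTPRN2, a phosphatase-like protein of secretory vesicles, held 19 over 1049 kb, from 3.34 to 9.25. These 3 genes lie near the ends of the chromosome. HIP1 held 15 over 205.6 kb, from 2.36 to 6.20, and CALN1, a calcium-binding protein of neurons, held 15 over 724.8 kb, from 2.44 to 11.04. PDE1C, a calmodulin-dependent phosphodiesterase, held 14 and AUTS2, a gene of neuronal development, 13. GALNT17, of the GalNAc-transferase family, also held 13, and PRKAR1B held 11. Per Mb of gene AUTS2 came last of the 10, with 10.9 over 1195 kb, while HIP1 had 72.9. Of the 152 peaks 24 had an FDR under 0.05, beside 15.5% of the whole list, and GALNT17 had none of these.

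The peak with the highest fold enrichment of the chromosome lay in CALN1 at chr7:72208911-72209478, and reached 11.04, with 33 fragments and an FDR of 2.10e-22. The other 14 peaks of CALN1 did not exceed 4.09, so 1 peak stood far above the rest of its gene. The second lay in PTPRN2 at chr7:158151234-158151676, with 9.25 and an FDR of 2.29e-21. PTPRN2 held another of the first 10 at chr7:158385822-158386330, with 6.67 and an FDR of 2.86e-07. MAD1L1 held the longest of the first 10, 1083 bp at chr7:1929579-1930661, with 7.04 and an FDR of 3.17e-08. ZNF467, a zinc finger protein, held 1 peak, at chr7:149771800-149772116, with 6.67 at a background of 1.047 and an FDR of 8.67e-06. HIP1 held 1 at chr7:75631840-75632227 with 6.20. Outside protein-coding genes, chr7:5273262-5273559 lay 9.53 kb from the monoamine transporter gene SLC29A4 with 6.26, and chr7:48921426-48921734 lay 2.97 kb from CDC14C, of a phosphatase family of the cell cycle, with 6.20.

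The fourth peak in fold enrichment, at chr7:74906517-74906881 with 7.25, lay in SPDYE12 and in the PMS2 pseudogene PMS2P5. Its pileup of 53.54 and background of 6.52 were both high, and it had the lowest FDR of the chromosome, 1.35e-24. Both annotations belong to families of near-identical copies, so the placement of its reads is uncertain. The 21 annotated Speedy E genes and pseudogenes of the chromosome held 27 placements in 14 of them, and the 16 PMS2 genes and pseudogenes 12 in 8. The RASA4 family held 19 in 4 of 4, with 10 in RASA4 and 7 in RASA4B. Of protein-coding genes of the chromosome 36.6% held a peak, but the families also count pseudogenes. The counts are uncertain in the same way, the families were chosen after their values were seen, and nothing is read from their shares.

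The 5 highest pileups lay together within 4.16 kb, at chr7:56370563-56374725. Their pileups ran from 55.49 to 142.13, but their fold enrichments only from 2.23 to 3.15, because the local background there was 21 to 52.0. The highest, 142.13 at chr7:56373416-56373798, stands for 146 fragments. Of the 5 peaks 4 lay over pseudogenes, LOC100419985, LOC100533648, LOC100419986 and LOC100533649, and the nearest protein-coding gene was LOC107986800. The input coverage by position and the copy number of this stretch were not analysed here.

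Gene lists of chromosome 7 were read beside the 29.3% of protein-coding genes of the genome that hold a peak, with no set test. The HOXA cluster, the homeobox genes that pattern the body axis, held none in 12 of 12 genes, EVX1 included. Over its 107.1 kb there was no peak, and the nearest peaks lay 801 kb away, at the SNX10 promoter, and 1423 kb away on the other side. Smell and taste receptor genes held 1 peak in 24 genes, in OR2A42, with a fold enrichment of 3.75 and an FDR of 0.122. The genes of both lists are short, with medians of 3.05 and 1.15 kb, beside 27.3 kb over the chromosome. The 5 genes chosen as a contrast held none, and PRSS1, PRSS2 and PIP of these are in no other list.

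The Williams-Beuren region, named for the syndrome in which it is deleted, lies in the dense stretch at 73 to 75 Mb. Of its 22 genes 15 (68.2%, 47.3% to 83.6%) held 49 peaks, which is 62.7 per Mb of gene. MLXIPL, the carbohydrate-responsive transcription factor ChREBP, held 9 peaks in 54.7 kb, with fold enrichments from 2.92 to 4.16. GTF2IRD1 held 9 in 148.7 kb, from 2.68 to 3.90, and CLIP2, a microtubule linker, 7 in 116.5 kb. ELN, which encodes elastin, held 5 in 41.7 kb, from 2.93 to 4.27, and the chromatin gene BAZ1B held 3. An FDR under 0.05 was given to 6 of the 49, in MLXIPL, BUD23, ELN and NCF1, beside 15.5% of the whole list. Their median background was 1.93 in MLXIPL and 2.0 in GTF2IRD1 and CLIP2, and its part in their number was not tested. GTF2I and NCF1, with 4 and 2 peaks, have near-identical copies nearby and are uncertain. FKBP6, FZD9, VPS37D, DNAJC30, CLDN3, EIF4H and RFC2 held none.

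All 3 mucin genes held peaks, 16 in 107.0 kb of gene. MUC12, a membrane mucin with long repeats, held 8, and the highest of these in pileup, at chr7:100997456-100997728, rested on 26 fragments with a fold enrichment of 3.76 and an FDR of 7.97e-05 against a background of 6.0. MUC3A and MUC17, also membrane mucins, held 4 each. An FDR under 0.05 was given to 5 of the 8 peaks of MUC12 and to none of the others, beside 15.5% of the whole list. The median background of the MUC12 peaks was 4.00, well above the 1.68 of the chromosome, and its part in their number was not tested.

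Of 23 genes listed as long neural genes, with a median of 607.4 kb, 18 (78.3%) held a peak. Among all genes of the chromosome the share was 84.6% at 500 kb or more and 57.0% at 100 to 500 kb. The list holds genes of both classes, such as SEMA3C with 179.9 kb, so neither share is matched to it. The 23 genes held 111 peaks, at 6.54 per Mb of gene, below the 11.3 of all protein-coding genes of the chromosome. They differed widely among themselves. SDK1, CALN1 and CUX1, a homeobox transcription factor, held 21.7, 20.7 and 21.4 peaks per Mb, and PTPRN2 18.1. CNTNAP2, a neurexin-like adhesion protein and the longest at 2304 kb, held 2 peaks, or 0.868 per Mb, and the scaffold gene MAGI2 held 4 over 1437 kb. FOXP2, a transcription factor of speech circuits, DGKB, IMMP2L, NRCAM and SEMA3D held none, and the nearest peak to DGKB was 1535 kb away. The 14 genes in blocks with a median background of 1.5 or more held 9.62 peaks per Mb and the 9 in other blocks 3.79. That division was made after the values were seen, and PTPRN2, with the 18.1 per Mb given above, lies in a block of low background. DPP6, another gene of such a block, held 9 peaks at 7.85 per Mb.

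Of 16 growth factor receptor and RAS pathway genes, 5 (31.25%, 14.2% to 55.6%) held a peak. EGFR, the epidermal growth factor receptor that drives many lung adenocarcinomas, held 1 at chr7:55112281-55112513, with a fold enrichment of 3.82 and an FDR of 0.290. MET, the hepatocyte growth factor receptor, held 1 at chr7:116724075-116724307 with 4.06 and an FDR of 0.134. SMO, the Smoothened receptor of hedgehog signalling, held 1 with 2.71 and an FDR of 1. BRAF, RAC1 and SHH were among the 11 with none. The single peaks in EGFR, MET and SMO were all above an FDR of 0.05, and most peaks of this list, 17 of 20, were those of RASA4 and RASA4B, which are uncertain. An FDR under 0.05 was given to 9 of the 20, beside 15.5% of the whole list. Of these, 6 lay in RASA4 and 3 in RASA4B.

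Of the 4 cell cycle kinase genes, with a median of 190.5 kb, 3 held peaks. On the chromosome 57.0% of the genes of 100 to 500 kb did, and 84.6% of those of 500 kb or more. CDK14, of 614.3 kb, is in the longer class, so neither share is matched to the list. CDK6, a partner of D-type cyclins, held 1 at chr7:92834381-92834738, with a fold enrichment of 3.78 and an FDR of 0.0936. CDK13 held 1 with 3.93 and an FDR of 0.170, CDK14 held 3 from 2.605 to 3.75, and CDK5 held none. Of 9 repair and replication genes PMS2, RINT1 and SEM1 held 1 each. The peak of PMS2, a mismatch repair gene, had a fold enrichment of 4.77 and an FDR of 0.0243, but PMS2 has many pseudogene copies. Of 7 ion channel genes CFTR, the chloride channel of airway epithelium, held 1 at chr7:117500356-117500588 with 4.29 and an FDR of 0.101. Of 39 zinc finger genes 15 (38.5%, 24.9% to 54.1%) held 17 peaks, close to the 36.6% of the chromosome.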

How the data were processed

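HNRNPK ChIP-seq of untreated H1299 cells gave 1 IP and 1 input library, and the peak list used the input as control. The submitters' processing notes name Trimmomatic 0.36, STAR 2.5.3a, MACS2, bedtools and HOMER and the build GRCh38, without their roles, and the thresholds are not given in the sources used here. The fold enrichment deposited by the authors is a linear ratio, IP over local background coverage. The pileup deposited by the authors is a signal, the IP coverage in scaled fragments, in whole multiples of 0.9735. On a linear scale, too, are the deposited p-value and the FDR, which is a q-value. Reads per library were not analysed here.

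Dividing the pileup plus 1 by the fold enrichment and taking off 1 gave the background. Peaks were placed by their midpoint on 59679 RefSeq gene spans (GRCh38.p14), 20037 of them protein-coding, and promoter windows by an overlap of 1 bp. Promoter windows and strand were not used here for every gene, and start sites covered 19623 of the 20502 peaks on the other chromosomes. The line was fitted by least squares over 23 chromosomes. Shares carry Wilson and counts exact Poisson 95% intervals, the latter scaled for the ratio to the line. The ratio of arms has an exact binomial interval and medians have intervals from ranks. No significance test was run. Genes named were those of, or nearest to, the 10 peaks with the highest fold enrichment and the 5 with the highest pileup, the 10 genes with the most peaks, the 10 highest with a promoter overlap, the genes of the 3 fullest 1 Mb bins and list members. Of the genes so named, 1 is not reported here. The members and lists were chosen with earlier results of these data known. Alternatives were thresholds on the FDR, fold enrichment and background, merged peaks, other genes, bins, windows, arm boundaries and lines, overlap rules and 1 strand for motifs. The code that places peaks on genes was tested on simulated data and recovered the simulated placements. Python 3.11.15 was used with numpy 2.4.6, scipy 1.17.1, pandas 2.3.3 and matplotlib 3.10.9.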

Additional observations from a re-analysis of the deposited data

How the results depend on the processing

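Of 69 alternatives, 28 stayed within the interval of the main value, or within 1.5 times for a count, 36 moved outside it and 5 turned the direction. The ratio of chromosome 7 to the line, 1.59, was 1.78 with an FDR under 0.05, 2.07 with an FDR of at most 0.001, 1.47 with a fold enrichment of at least 5, 1.43 with all annotated genes and 1.46 per coding gene against the median of the other chromosomes. It turned to 0.966 with a background under 1.5, a cut that left out 60.2% of the chromosome 7 peaks and 36.8% of the others. The ratio of long to short arm, 1.15, turned to 0.930 with an FDR under 0.05, 0.781 with an FDR of at most 0.001, 0.580 with fold enrichments from 5 upward and 0.937 with a background under 1.5, and rose to 1.29 without the fullest bin. The cause of these changes was not tested. Settings with a background under 1.5, the line without chromosomes X and Y and the mean of like bins were chosen after seeing the data.

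For an FDR under 0.05, an FDR of at most 0.001 and a fold enrichment of at least 5, in this order, the share in the 10 fullest bins (32.7%) was 45.7%, 69.1% and 57.1%, the share inside coding genes (52.0%) 49.4%, 45.5% and 46.9%, the share of coding genes with a peak (36.6%) 10.02%, 2.03% and 2.13%, the median length (278 bp) 309, 401 and 365 bp, the median pileup (8.76) 11.68, 17.52 and 12.66, and the median fold enrichment (3.53) 4.45, 5.53 and 5.59. Fewer peaks enter by construction. With a background under 3 the median pileup was 7.79, and under 1.5 the share in the fullest bins was 24.1% and that of genes with a peak 17.9%.

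Other bins gave 19.98% (0.5 Mb) and 47.8% (2 Mb). With all annotated genes 65.2% lay inside and 12.7% near an end, and near coding gene ends 3.01% (500 bp) and 15.3% (3000 bp), beside 6.01%, by construction. Promoter overlaps fell from 21 genes to 4 with an FDR under 0.05 and 12 by midpoint, and the 2 stricter thresholds left none. CCCTCC was in 34.4% of windows on the given strand alone. No paired analysis was possible because the series holds a single IP and a single input. The median peak rests on 9 fragments, which limits single peaks.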
